A study of Homo sapiens with 11 samples.

Results

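The 10 genes described here encode the machinery that carries a cell out of G1: the D-type cyclins CCND1, CCND2 and CCND3, their kinases CDK4 and CDK6, the E-type cyclins CCNE1 and CCNE2, their kinase CDK2, the retinoblastoma protein RB1 and the CDK4/6 inhibitor gene CDKN2A. They were taken by gene symbol, all 10 are among the 28152 symbols of the count table, and all 10 passed the count filter that left 16653 genes for testing. RNA sequencing was done on xenografts labelled BT-474, a cell line from a human breast tumour, with the labelled genotype HR+/Her2+. The xenografts were grown in the mammary fat pad of female athymic nude mice, which lack mature T cells. All animals, controls included, carried an estrogen pellet with 0.72 mg of estradiol made for 90 days. Vehicle animals (6 tumours) were injected under the skin every 4 days with 5% mannitol in water, and treated animals (5 tumours) with evexomostat (SDX-7320), an inhibitor of methionine aminopeptidase 2, at 12 mpk in the same solution. All libraries are labelled Day 33, and each is taken here as 1 tumour. The labels give no age for the mice.

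In early G1, growth signals raise the D-type cyclins, which bind CDK4 or CDK6, and the resulting kinases begin to phosphorylate RB1. Phosphorylated RB1 releases E2F transcription factors, which switch on the E-type cyclins and genes of DNA replication, and CDK2 bound to an E-type cyclin completes the step into S phase. CDKN2A encodes p16INK4a, which blocks CDK4 and CDK6, and, from a separate first exon, p14ARF, which stabilises p53. In breast cancer this pathway is known for CCND1 amplification and for the use of CDK4/6 inhibitors in hormone receptor-positive disease.

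Libraries held 23992505 to 39249329 counts under vehicle and 22808033 to 32093792 under evexomostat. In vehicle replicate 001 the top 100 genes took 23.9% of all reads, a share that lay between 16.2% and 17.9% elsewhere. Values that it moves are given with and without it. Of the labelled line's 10 markers, the hormone receptor genes were scarce: ESR1 did not exceed 0.597 RPM (reads scaled to the library total) or PGR 0.144 RPM in any library. FOXA1, EPCAM, CDH1 and KRT19 averaged 1.05, 3.03, 0.456 and 0.803 RPM and GATA3 6.498 RPM. ERBB2, which encodes Her2, averaged 53.7 RPM and lay between 23.0 and 65.3 RPM. The luminal keratin genes KRT8 and KRT18 were higher, at means of 331.6 and 148.6 RPM, as was the mesenchymal gene VIM at 1187 RPM. Of the other mesenchymal and basal markers, CD44, KRT5 and KRT14 averaged 832.3, 75.7 and 6.18 RPM. The low ESR1 and PGR levels are at odds with the label HR+. Whether the ERBB2 level matches the label Her2+ was not tested, and neither was the identity of the line. Whether mouse reads were removed is not given in the sources used here. In whole tumours, fewer cells of a type and less RNA per cell cannot be told apart.

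Of the 10 genes, 1 changed with treatment. CCND2 rose from 2.07 ± 1.35 CPM (SD, n = 6) under vehicle to 9.50 ± 4.21 CPM (SD, n = 5) under evexomostat, a 4.63-fold difference that was only just past the threshold, an adjusted p of 0.05 over all genes. CPM are RPM corrected with TMM factors for differences in library composition. Over all genes tested, 0.606% were past this threshold (101 genes) and 0.174% were past it and higher. At an unadjusted p under 0.05, CCND2 was again the sole member, against 13.4% of all genes. The median log2 fold change was -0.01 for the 10 members and -0.04 for all genes tested, and 5 of 10 members had a positive fold change, against 44.6% of all genes.

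**Figure D1:**
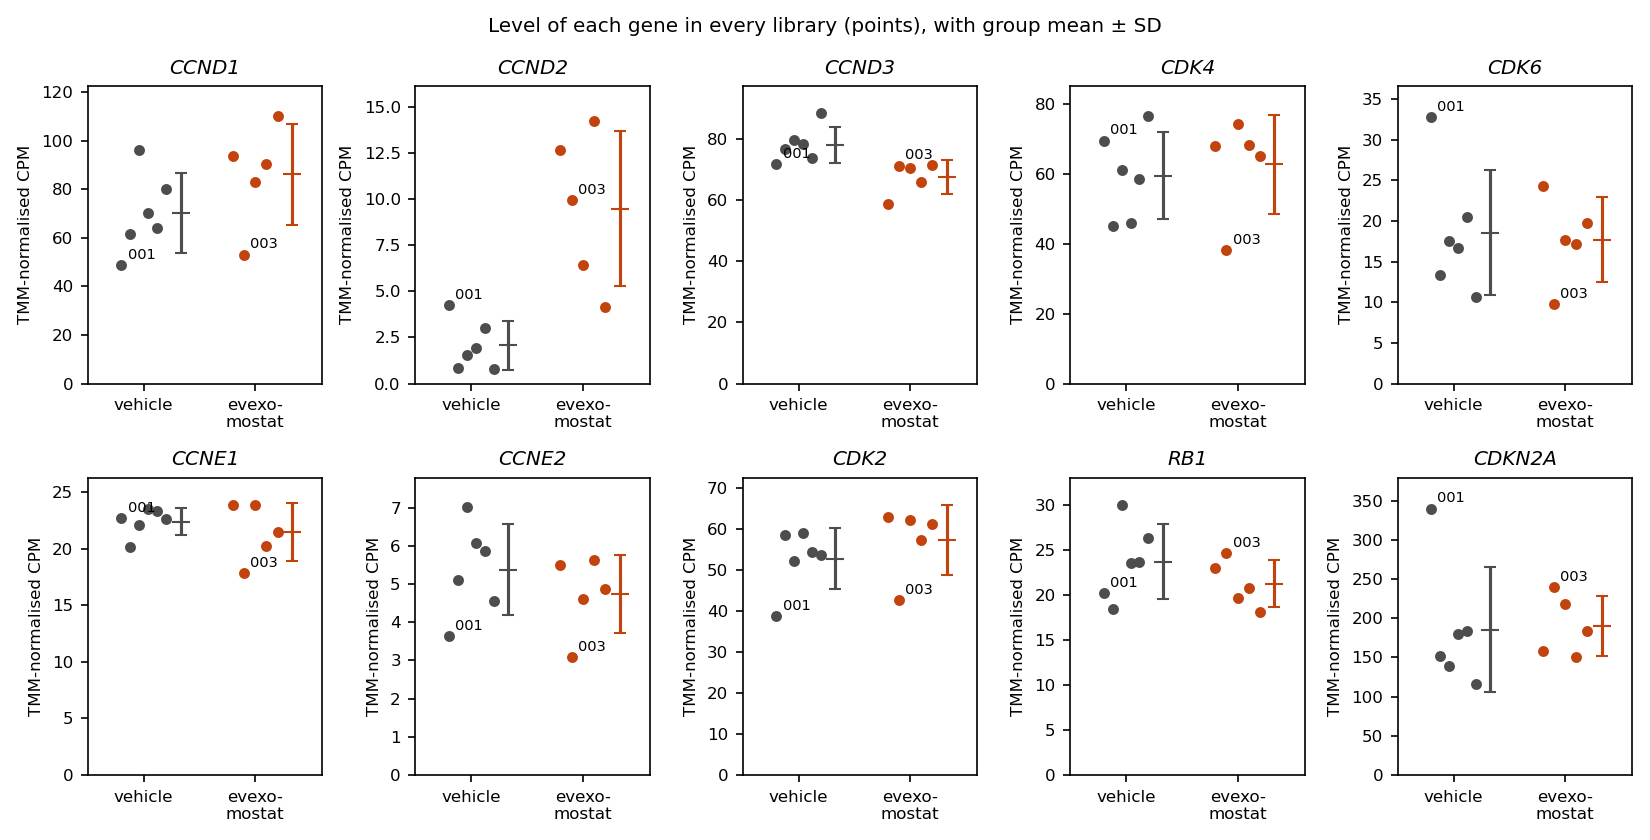
Level of each of the 10 genes in every library, in TMM-normalised CPM on axes that start at 0, with points for single tumours and bars for the group mean ± SD; vehicle replicate 001 and evexomostat replicate 003 are marked. CCND2 lies between 0.809 and 4.27 CPM under vehicle and between 4.14 and 14.3 CPM under evexomostat, and in the other panels the group means lie close to each other.

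CCND2 encodes cyclin D2, which is widely used in stem and progenitor cells and is often silenced by methylation in breast cancer. Under vehicle its lowest, median and highest values were 0.809, 1.74 and 4.27 CPM, the highest in replicate 001. Under evexomostat the values were 12.7 CPM in replicate 002, 9.96 in 003, 6.45 in 004, 14.3 in 005 and 4.14 in 007. Only evexomostat replicate 007 reached down into the vehicle range, below vehicle replicate 001 and above the other 5 vehicle libraries. In CPM, 2.97% of all genes tested had groups that did not overlap, and CCND2 was not among them. On the authors' RPM scale, which has no composition correction, CCND2 was at most 3.67 RPM under vehicle and at least 4.18 RPM under evexomostat. How many other genes separate in this way on the RPM scale was not counted. In edgeR the CCND2 difference was 2.21 on the log2 scale (SE 0.45, 95% interval 1.25 to 3.17, adjusted p 0.0469). The counts behind these values ran from 22 to 431 reads per library, so counting error alone was up to 21.3% of a value.

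The rise of CCND2 kept its direction whichever library was left out, with log2 fold changes from 2.02 to 2.55, but its call did not. Without vehicle replicate 001 the edgeR adjusted p was 0.0104 at a log2 fold change of 2.55. Leaving out any other single library took the adjusted p above the threshold, to between 0.0580 (without vehicle replicate 006) and 0.134 (without evexomostat replicate 005), and so did upper quartile scaling, at 0.0557. The unadjusted p stayed at or below 9.21e-04 in these 11 comparisons. In the authors' deposited table CCND2 has a log2 fold change of 2.33 and an adjusted p of 4.20e-05. There 0.952% of all 28152 symbols are under 0.05, a share not taken over the 16653 filtered genes used here. No other member is under 0.05 in it.

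Markers of other cell types were read beside CCND2, and skeletal muscle was the one list with members at an unadjusted p under 0.05. Of 7 skeletal muscle genes, 4 were tested (ACTA1, MYH1, MYH2, MYH4), all 4 had a positive fold change, all 4 had an unadjusted p under 0.05 and 0 were past the threshold in edgeR's test; CKM, TNNT3 and MYLPF stayed under 1 RPM in every library. Their summed level ran from 1.24 to 18.3 RPM under vehicle and from 1.43 to 410.1 RPM under evexomostat, highest in replicate 005, which also had the highest CCND2. Evexomostat replicate 002, with the second highest CCND2, had the lowest muscle sum of its group, 1.43 RPM. Summed fibroblast markers (6 genes) ran from 390.8 to 2063 RPM under vehicle and from 499.2 to 1122 RPM under evexomostat. The evexomostat range thus lay inside the vehicle range, and 0 of the 6 were past the threshold. COL3A1, the most abundant of them at a mean of 596.0 RPM, had a log2 fold change of -0.63. The other 5 fibroblast genes had positive fold changes, and the list median was 0.32. DCN and LUM, which define fibroblasts, were at 0 in at least 1 library each. The sums for endothelium (8.92 to 23.2 against 10.04 to 14.8 RPM) and leukocytes (69.1 to 120.0 against 88.7 to 109.2 RPM) likewise had the evexomostat range inside the vehicle range. The same held for the labelled-line markers (337.7 to 755.9 against 477.4 to 650.3 RPM) and the mesenchymal and basal markers (1676 to 2602 against 1908 to 2420 RPM), with 0 genes past the threshold in any list. Adipocyte markers summed to 2.65 RPM or less in every library, with ADIPOQ at 0 counts. Whether mouse reads contribute to CCND2 was not tested.

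**Figure D2:**
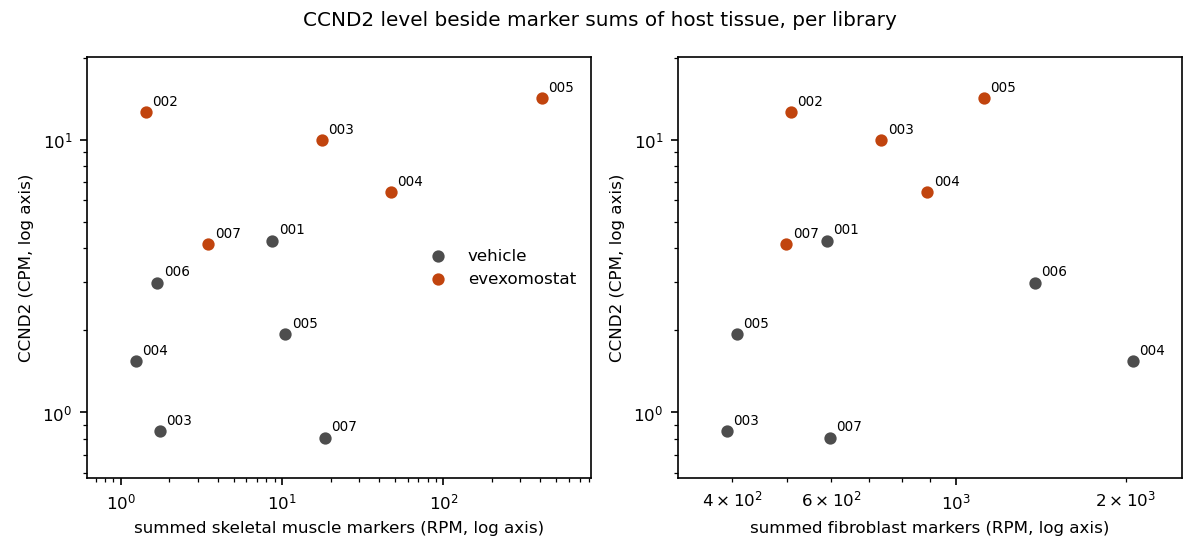
CCND2 in TMM-normalised CPM against the summed skeletal muscle markers (left) and fibroblast markers (right) in RPM, all axes logarithmic, with 1 point per library labelled by replicate. Evexomostat replicates 002 and 005, at 12.7 and 14.3 CPM of CCND2, lie at muscle sums of 1.43 and 410.1 RPM.

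CCND2-AS1, a transcript antisense to CCND2, had 0 to 4 counts per vehicle library and 4 to 10 per evexomostat library and was too low to be tested. The library kit named in the labels is not a directional one, so reads from the overlap cannot be assigned to a strand. The 3 genes whose log2 CPM followed CCND2 most closely over the 11 libraries were SBK2 (Pearson r 0.92, Spearman rho 0.89), ZMYND19 (0.91 and 0.88) and LRRC27 (0.91 and 0.92), as a description, since the libraries share the treatment groups. With the group means removed, the Pearson r values were 0.73, 0.72 and 0.80. These come from the same libraries that served to pick the 3 genes, so they are not independent of that choice. SBK2 was itself past the threshold in edgeR's test, from 0.105 ± 0.0764 (SD, n = 6) to 1.09 ± 0.566 CPM (SD, n = 5, adjusted p 0.0147). ZMYND19 and LRRC27 were not, with adjusted p-values of 0.133 and 0.194.

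CCND1 and CCND3 are the D-type cyclins that these tumours mainly express. Per kilobase of the longest RefSeq-matched transcript, CCND2 made up 0.654% ± 0.491 of the D-type cyclin level in vehicle tumours (SD, n = 6) and 2.90% ± 1.33 in treated ones (SD, n = 5). CCND3 made up 68.1% ± 3.88 and 58.8% ± 6.80, and CCND1 31.3% ± 4.16 and 38.3% ± 6.94, in the same order. So even after its rise CCND2 was the least abundant of the D-type cyclins, at 4.18% or less of their summed level in every library.

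CCND1 encodes cyclin D1, the D-type cyclin most often amplified in breast cancer and a target of estrogen signalling. It had its lowest, median and highest vehicle values at 48.8, 67.1 and 96.2 CPM. Under evexomostat it was at 93.5 CPM in replicate 002, 53.1 in 003, 83.2 in 004, 90.3 in 005 and 110.3 in 007. The groups overlapped, with evexomostat replicate 003 below every vehicle library but replicate 001 and evexomostat replicate 007 alone above the vehicle range. Its log2 fold change was 0.30, with a 95% interval from -0.13 to 0.72 (edgeR adjusted p 0.577), so a rise of up to 1.65-fold lies within the error. Without vehicle replicate 001 the log2 fold change of CCND1 was 0.22 (edgeR adjusted p 0.498).

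CCND3 encodes cyclin D3, best known from lymphoid cells but present in most tissues. Its vehicle values were 71.6, 77.4 and 88.5 CPM (lowest, median, highest), and its evexomostat values were 58.6, 71.2, 70.5, 65.8 and 71.3 CPM in replicates 002, 003, 004, 005 and 007. CCND3 was the one member whose groups did not overlap in CPM, by a narrow gap, where 2.97% of all genes did not. On the RPM scale the groups did overlap, from 61.6 to 84.5 RPM under vehicle and 58.8 to 77.03 RPM under evexomostat. The log2 fold change of -0.21 (SE 0.10, 95% interval -0.44 to 0.02) was not past the threshold, with an edgeR adjusted p of 0.412, and without vehicle replicate 001 it was -0.23, with an interval of -0.42 to -0.04 that leaves out 0 and an adjusted p of 0.136.

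The ratio of CCND1 to CCND3 reads within a library does not depend on scaling. Its mean log2 value was -0.18 ± 0.27 in the 6 vehicle libraries and 0.32 ± 0.45 in the 5 treated ones (mean ± SD). CCND3 had more reads than CCND1 in 5 of the 6 vehicle libraries, all but replicate 004, and CCND1 had more in 4 of the 5 evexomostat libraries, all but replicate 003. The difference of 0.50 had a two-sided exact permutation p of 0.0563 (0.169 adjusted over the 3 ratios examined), where 462 splits allow no p below 0.00216. Leaving out single libraries gave differences from 0.41 (without evexomostat replicate 002, exact permutation p 0.371 adjusted over the 3 ratios) to 0.68 (without evexomostat replicate 003, exact permutation p 0.0286 adjusted). Only this last was past 0.05, and the adjusted values for the other 10 ran from 0.119 to 0.371.

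**Figure D3:**
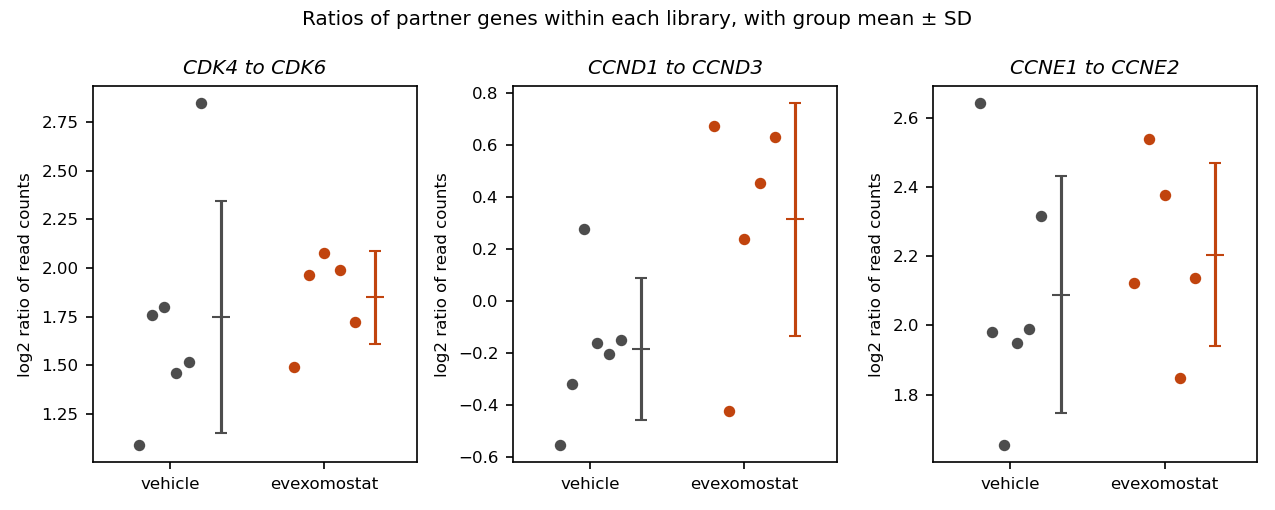
Log2 ratio of the read counts of CDK4 to CDK6, CCND1 to CCND3 and CCNE1 to CCNE2 in each library, with group mean ± SD. The CCND1 to CCND3 ratio lies at -0.18 ± 0.27 under vehicle and 0.32 ± 0.45 under evexomostat, with 1 evexomostat library at -0.42.

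CDK4 and CDK6 are the alternative partners of the D-type cyclins. CDK4 had vehicle values of 45.3, 59.9 and 76.5 CPM (lowest, median, highest). Under evexomostat CDK4 was at 68.2, 74.2, 68.3 and 65.2 CPM in replicates 002, 004, 005 and 007, and at 38.2 CPM in replicate 003, below every vehicle library. The other 4 treated tumours all lay in the upper part of the vehicle range. The log2 fold change of CDK4 was 0.08 (95% interval -0.33 to 0.48, edgeR adjusted p 0.908), and it was 0.13 without vehicle replicate 001 and 0.21 without evexomostat replicate 003.

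The coefficient of variation was 41.6% for CDK6 and 21.0% for CDK4 under vehicle, and 29.6% and 22.6% under evexomostat. For CDK6 the vehicle value includes replicate 001 and was not computed without it. CDK6 had vehicle values of 10.6, 17.1 and 32.7 CPM (lowest, median, highest), the highest in replicate 001. Its evexomostat values were 24.2, 9.76, 17.6, 17.2 and 19.7 CPM in the order of replicates 002, 003, 004, 005 and 007. The log2 fold change was -0.07 (95% interval -0.67 to 0.54, edgeR adjusted p 0.955) and changed sign without vehicle replicate 001, to 0.18. CDK4 reads outnumbered CDK6 reads in all 11 libraries, and the log2 ratio was 1.75 ± 0.60 in vehicle and 1.85 ± 0.24 in evexomostat tumours (SD, exact permutation p 0.747). Per kilobase the gap was wider, at 28.7 ± 6.02 against 1.599 ± 0.665 CPM per kilobase under vehicle. The CDK6 transcript used for this scaling is long (11612 bases) and another is 1465 bases, so the CDK6 value per kilobase is a lower estimate if the short form is common.

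The E-type cyclins act one step later and are themselves E2F targets. CCNE1 was the steadiest of the 10 genes under vehicle, with a coefficient of variation of 5.37%, at 20.2, 22.7 and 23.5 CPM (lowest, median, highest). Its evexomostat values were 23.9, 17.9, 23.9, 20.3 and 21.5 CPM in replicates 002, 003, 004, 005 and 007, with replicate 003 alone below the vehicle range. The log2 fold change was -0.06 with a 95% interval from -0.32 to 0.20 (edgeR adjusted p 0.888), which as a fold of the vehicle level runs from 0.803 to 1.14.

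CCNE2 was lower, at 3.64, 5.49 and 7.02 CPM (lowest, median, highest) under vehicle. Under evexomostat it was at 5.49, 3.08, 4.601, 5.63 and 4.88 CPM in replicates 002, 003, 004, 005 and 007, so that 4 of the 5 lay inside the vehicle range and replicate 003 below it. Its log2 fold change was -0.18 (95% interval -0.65 to 0.28, edgeR adjusted p 0.784), and without vehicle replicate 001 it was -0.27 (edgeR adjusted p 0.425). The log2 ratio of CCNE1 to CCNE2 was 2.09 ± 0.34 (SD, n = 6) and 2.20 ± 0.26 (SD, n = 5), an exact permutation p of 0.535.

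CDK2, the kinase of the E-type cyclins, was at 38.7, 54.1 and 59.2 CPM (lowest, median, highest) under vehicle and at 63.1, 42.7, 62.4, 57.4 and 61.4 CPM in evexomostat replicates 002, 003, 004, 005 and 007. Treated replicates 002, 004 and 007 lay above every vehicle library, and replicate 003 lay below all of them but replicate 001. The log2 fold change of 0.12 had a 95% interval from -0.19 to 0.42 (edgeR adjusted p 0.785). It was 0.05 without vehicle replicate 001 and 0.21 without evexomostat replicate 003.

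RB1 encodes the substrate on which these kinases converge and is present in every tumour, at 18.4, 23.6 and 30.0 CPM (lowest, median, highest) under vehicle. Its evexomostat values were 22.9, 24.6, 19.6, 20.8 and 18.1 CPM in replicates 002, 003, 004, 005 and 007, which overlapped the vehicle values almost wholly. The log2 fold change was -0.16 (95% interval -0.48 to 0.16, edgeR adjusted p 0.718). Transcript level says nothing of RB1 phosphorylation, the step the kinases control.

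CDKN2A was the most abundant of the 10 genes, ranked 1022 of 28152 symbols by mean RPM. Under vehicle its lowest, median and highest values were 116.2, 166.2 and 339.5 CPM, the last in replicate 001, and without that library the vehicle maximum was 183.3 CPM. Under evexomostat it was at 158.7 CPM in replicate 002, 239.3 in 003, 218.4 in 004, 150.7 in 005 and 183.5 in 007. The groups overlapped, with a log2 fold change of 0.04 (95% interval -0.49 to 0.57, edgeR adjusted p 0.972). Without vehicle replicate 001 the log2 fold change was 0.31 (95% interval -0.04 to 0.65, edgeR adjusted p 0.259), and evexomostat replicates 003, 004 and 007 then lay above all vehicle libraries, the last narrowly.

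The CDKN2A row adds reads from transcripts that begin at different starts and encode p16INK4a or p14ARF, and the table cannot separate them. In RefSeq (GRCh38.p14) these starts lie 20467 bases apart on the minus strand, and the 250 bases before each are shown because they are 2 distinct promoters behind 1 measured value. The window upstream of the distal start is chr9:21995325-21995574, and that upstream of the proximal start is chr9:21974858-21975107. Capitals mark GGGCGG, the GC box bound by SP1-type factors, searched on both strands.
CDKN2A distal: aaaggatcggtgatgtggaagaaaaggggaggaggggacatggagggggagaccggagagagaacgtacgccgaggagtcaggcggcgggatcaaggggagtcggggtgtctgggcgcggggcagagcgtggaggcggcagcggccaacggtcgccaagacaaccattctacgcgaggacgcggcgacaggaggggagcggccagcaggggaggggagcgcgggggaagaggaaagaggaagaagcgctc
CDKN2A proximal: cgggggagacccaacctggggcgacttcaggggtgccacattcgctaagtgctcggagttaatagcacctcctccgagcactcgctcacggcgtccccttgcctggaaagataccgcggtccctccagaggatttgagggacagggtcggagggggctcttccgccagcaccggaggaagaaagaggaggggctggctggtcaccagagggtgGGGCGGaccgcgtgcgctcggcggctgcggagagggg

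The distal window held 0 GC boxes and the proximal window 1, while 42.6% of 35116 windows of this length upstream of RefSeq starts held at least 1. RefSeq windows were matched for 6 of the 10 members (CCND3, CDK4, CDK6, CCNE1, RB1 and CDKN2A) and not for CCND1, CCND2, CCNE2 or CDK2. The sole RB1 window lies before a start at chr13:48476450 and held 36.8% G and C, against 61.2% to 81.2% in the other member windows. Whether this start is the main one of RB1 was not tested, so the RB1 promoter may not have been searched. In the 10 windows of those 6 genes, the E2F-type letters TTTCGCGC, TTTGGCGC and TTTCCCGC were found 0 times on either strand, and 2.32% of all windows held at least 1 of them. These are matches of letters and not sites of binding. CDKN2B-AS1, which overlaps the same locus, had 128 to 210 counts per library and a log2 fold change of -0.08 (edgeR adjusted p 0.922).

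Ordered by level per kilobase, CDKN2A stood first at 152.0 ± 65.5 CPM per kilobase under vehicle (SD, n = 6), followed by CCND3 (35.0 ± 2.63), CDK4 (28.7 ± 6.02), CDK2 (23.0 ± 3.24), CCND1 (16.3 ± 3.81), CCNE1 (10.97 ± 0.589), RB1 (4.94 ± 0.871), CCNE2 (1.97 ± 0.441), CDK6 (1.599 ± 0.665) and CCND2 (0.319 ± 0.208). CDKN2A was above CCND3 in all 11 libraries, and the steps from CDK2 to CCND1, CCND1 to CCNE1, CCNE1 to RB1 and RB1 to CCNE2 also held in all 11. CCND3 and CDK4 were not separated, with CCND3 higher in 7 of 11 libraries, nor were CDK4 and CDK2 (8 of 11). CCNE2 exceeded CDK6 in 9 of 11 libraries and CDK6 exceeded CCND2 in 9 of 11. Under evexomostat CCND2 reached 1.47 ± 0.650 CPM per kilobase (SD, n = 5), beside CDK6 at 1.52 ± 0.452.

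**Figure D4:**
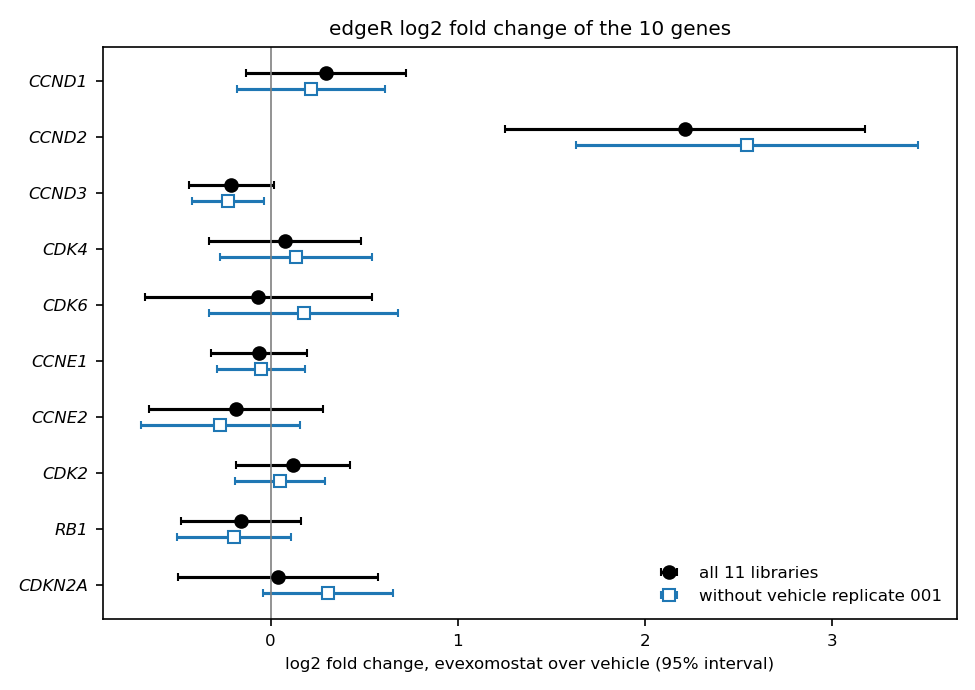
EdgeR log2 fold change of each gene, evexomostat over vehicle, with its 95% interval, for all 11 libraries (filled circles) and without vehicle replicate 001 (open squares). CCND2 lies at 2.21 and 2.55, and over all 11 libraries the intervals of the other 9 genes include 0.

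Differences between tumours of the same group were as large as most differences between the groups, and they ran through several members at once. Evexomostat replicate 003 was the lowest of its group in 6 of the 10 genes, CCND1, CDK4, CDK6, CCNE1, CCNE2 and CDK2, and the highest in RB1 and CDKN2A. It was also the shallowest library, at 22808033 counts. Vehicle replicate 001 was the lowest of its group in CCND1, CCND3, CCNE2 and CDK2 and the highest in CCND2, CDK6 and CDKN2A. Vehicle replicate 007 was lowest in CCND2, CDK6 and CDKN2A and highest in CCND3 and CDK4. How often these libraries were lowest or highest over all genes was not counted, so these counts are no result about the members. What sets these tumours apart was not tested.

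**Figure D5:**
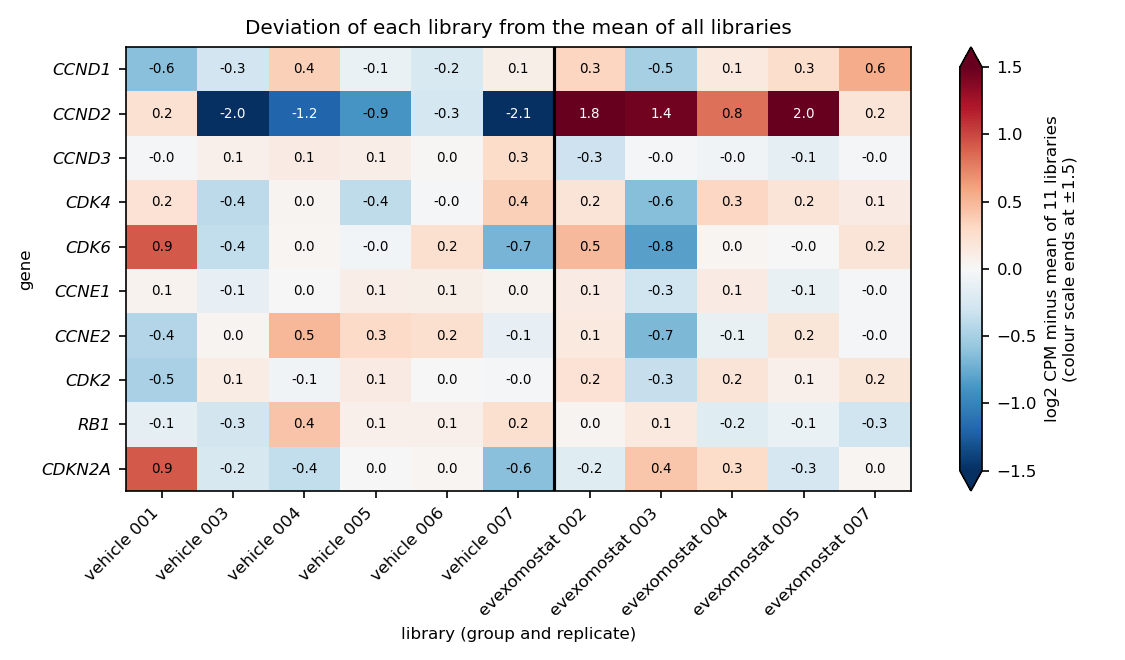
Log2 CPM of each gene in each library minus its mean over the 11 libraries, written in each cell; red is above and blue below the mean, and the colour scale ends at 1.5 in either direction. Evexomostat replicate 003 is blue in CCND1, CDK4, CDK6, CCNE1, CCNE2 and CDK2 and red in CDKN2A, and CCND2 has the widest spread of the 10 rows.

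Of 35 further genes of the pathway in 4 lists, 0 were called by edgeR, and DESeq2 and limma also called 0. With 0.606% of all genes called, a count of 0 among 35 is near the background and is no result about the lists. At an unadjusted p under 0.05 the count was also 0, beside 13.4% of all genes. Their median log2 fold change was -0.04, the same to 2 decimals as over all genes, and 16 of 35 were positive (45.7%), against 44.6% of all genes. The groups overlapped in CPM in all 35, where 2.97% of all genes tested did not overlap, so this count too is near the background.

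Among the other CDK inhibitors, 5 of 6 had a negative fold change (list median -0.23), where most genes tested were also negative, and none of the 6 had an unadjusted p under 0.05. CDKN1A, which encodes p21, a p53 target that binds CDK2 complexes, had the lowest fold change and the smallest p of its list, from 50.4 ± 16.1 (SD, n = 6) to 36.6 ± 8.36 CPM (SD, n = 5). Its log2 fold change of -0.46 had an SE of 0.22 and an edgeR adjusted p of 0.399. CDKN1C, which encodes p57, had the highest, at 0.14 (edgeR adjusted p 0.907). The RB1 relatives RBL1 and RBL2 were at -0.10 and -0.25, with adjusted p-values of 0.804 and 0.671.

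Of 11 genes that activate the G1 kinases or turn over their cyclins, 4 were positive and 7 negative (median -0.04). CDC25A, the phosphatase that activates CDK2, was at 0.25 (SE 0.13, edgeR adjusted p 0.451), the highest value and the smallest p of the list, and SKP1, a subunit of SCF ubiquitin ligases, was lowest at -0.30 (edgeR adjusted p 0.653). Of 16 G1/S genes that lie downstream of RB1, 11 were positive and 5 negative (median 0.02). MCM5, a subunit of the replicative helicase, was highest and had the smallest p, from 86.8 ± 14.3 (SD, n = 6) to 103.2 ± 5.39 CPM (SD, n = 5), or 0.25 on the log2 scale (edgeR adjusted p 0.433). RRM1, the large subunit of ribonucleotide reductase, was lowest at -0.27 (edgeR adjusted p 0.537).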

How the data were processed

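RNA from 11 xenograft tumours (6 vehicle, 5 evexomostat) was analysed from gene-level files. The submitters' processing notes name bcl2fastq 2.17, STAR 2.7.5c, featureCounts, Subread, edgeR and the build GRCh37 (hg19), with no role or order, and the annotation and strand setting are not given in the sources used here. The deposited counts are whole reads per gene symbol, and the authors' RPM values are those counts scaled to the library total (largest difference 2.27e-13). The authors' deposited table holds log2 fold changes, p-values and group means in RPM. Columns were matched to samples by the code in the sample description.

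Genes were kept with filterByExpr (minimum count 10, total 15), scaled by TMM and compared with edgeR 4.0.16 (R 4.3.3) by its quasi-likelihood F-test without covariates, Benjamini-Hochberg adjusted over all 16653 genes. Alternatives were other scalings, DESeq2 1.42.0, limma 3.58.1 (voom with quality weights, and log2(RPM + 1) or log2(RPM + 0.1)), no filter, a replicate block and leaving libraries out. On simulated data with 200 changed genes, 6.25% of calls were false with the main edgeR fit and 18.1% with DESeq2. The other fits gave 4.13% to 8.23%. Log2 CPM used a prior count of 2. Ratios were compared by exact two-sided permutation. Transcript lengths are the longest RefSeq-matched transcripts of GENCODE release 29, and promoter windows are RefSeq's. The intervals on fold changes come from the edgeR fit and include the spread between libraries. The counting error given for CCND2 covers counting only, and 3 counts correspond to 0.0764 to 0.132 RPM. No pair of libraries was a duplicate (chi-square per degree of freedom at least 15.5). The labels do not say that the libraries come from separate animals, so p-values measure only the spread between these libraries, which may be technical.

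The members and lists were chosen with earlier results of these data known. Named genes were all members, the gene with the smallest p and those with the highest and lowest fold change in each list, any list gene past the threshold, and the 3 genes most correlated with the member of smallest p.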

Additional observations from a re-analysis of the deposited data

Results flagged for a closer look

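In 26 groups of values (10 genes and 3 ratios in 2 treatment groups), 4 had a library far from the rest of its group, and chance gives about 1 in 20 groups. The groups share the same libraries and the ratios reuse the same genes, so they are not independent and this rate is only a rough guide. CDK4 was 38.16 CPM in evexomostat replicate 003, against 65.18 to 74.24 CPM in the other 4 treated tumours. CDK2 was also low there, at 42.65 CPM against 57.45 to 63.09 CPM. In vehicle replicate 001 CDK2 was 38.74 CPM, against 52.23 to 59.20 CPM in the other vehicle tumours. CDKN2A was 339.5 CPM in the same library, against 116.2 to 183.3 CPM in the others. All 4 values lie in these 2 libraries, and the source of the departures was not tested.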

How the results depend on the processing

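For CCND2, the direction held in all 21 alternatives and the call in 10. The members called stayed at 1 except for 0 with upper quartile scaling, and ranged from 0 to 1 when single libraries were left out, with 1 only without vehicle replicate 001. Across these 21, CCND2 had adjusted p-values from 1.08e-04 (DESeq2) to 0.134. DESeq2 was also the fit with the largest share of false calls on simulated data (18.1%). The 35 further pathway genes gave 0 calls throughout. Over all genes the 101 calls became 649 with DESeq2, 1059 with quality weights and 652 without both vehicle replicate 001 and evexomostat replicate 003 (an alternative chosen after seeing the data), and ranged from 1 to 865 when single libraries were left out, 865 without vehicle replicate 001. They fell to 52, 46 and 56 without vehicle replicates 003, 004 and 007, and to 2, 46, 28, 1 and 3 without evexomostat replicates 002, 003, 004, 005 and 007. Upper quartile scaling gave 28 higher and 42 lower calls, against 29 and 72. The median log2 fold change of all genes moved by 0.11 with limma on log2(RPM + 1), which changes the scaling, the pseudocount and the fit together.

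CDK6 turned positive with quality weights (0.16), with both RPM pseudocounts (0.0565 and 0.0604), without both libraries named above (0.32) and on the 8 libraries with and without the replicate block (0.11 and 0.14); CCNE1 did so with the RPM pseudocounts (0.0278 and 0.0289). Leaving out single libraries, CDK6 ranged from -0.21 to 0.18 and CDKN2A from -0.0647 to 0.31. The ratio of CDK4 to CDK6 then differed by -0.0284 to 0.32, and that of CCND1 to CCND3 by 0.41 to 0.68. None of these values was past an adjusted p of 0.05, except the CCND1 to CCND3 ratio without evexomostat replicate 003 (0.0286, adjusted over the 3 ratios).

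The groups have the numbers 003, 004, 005 and 007 in common. Departures from the group means correlated at -0.27, 0.07, 0.05 and -0.10 within these pairs. Pairs with unlike numbers were not compared, so what the shared numbers stand for was not tested. On those 8 libraries 107 genes were called with the replicate block and 733 without it, CCND2 was at 2.703 with it (adjusted p 0.0282), and CDK2 was at -0.0186 with it and -0.0053 without. Under pairing the CDK4 to CDK6 difference was -0.0288 and the CCND1 to CCND3 difference 0.31 (exact sign-flip p 0.5, 0.75 adjusted over the 3 ratios). The cause was not tested for any of these changes.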
